A study of Homo sapiens with 30 samples.

Results

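PER-117 is a human cell line grown from T-cell acute lymphoblastic leukaemia (T-ALL), and its response to decitabine is described here across all genes. The libraries were chosen by the cell line and treatment in their sample titles, which gave 6 of the 30 libraries of the study. Of these, 3 came from PER-117 cells given 1 µM decitabine for 48 h and 3 from PER-117 cells given the vehicle dimethyl sulfoxide (DMSO) for 48 h. The other 24 libraries were made in the same way from the T-ALL lines PEER, TALL-1, MOLT-16 and Loucy, with 3 decitabine and 3 DMSO libraries each. All lines were grown in RPMI-1640 with fetal calf serum, and RNA was sequenced from its 3′ ends. PER-117 stands for a single leukaemia, and the labels do not say whether libraries of a group came from separate cultures. The p-values therefore measure the spread between these samples, which may be technical.

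Decitabine is a deoxycytidine analogue that is built into DNA, where it traps DNA methyltransferases and removes DNMT1, the enzyme that copies cytosine methylation onto newly made strands. Dividing cells then lose methylation, and genes that methylation keeps silent, such as germline genes, can be transcribed. Trapped enzyme is also a lesion in DNA that can activate the transcription factor p53, whose targets halt the cell cycle, repair DNA or start apoptosis.

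The PER-117 libraries held 11.8 M to 15.03 M reads on the gene strand with decitabine, and 9.93 M to 11.2 M with DMSO. Reads on the gene strand outnumbered opposite-strand reads by 14.9 to 15.02 times with decitabine and by 14.0 to 14.2 times with DMSO. Mitochondrial genes took 5.48% ± 0.236 of gene reads with decitabine and 4.49% ± 0.251 with DMSO (SD, n = 3 each), without overlap. Reads outside annotated genes made up 18.9% ± 0.626 of a library with decitabine and 24.98% ± 1.41 with DMSO. Both differences gave p = 0.1 in a two-sided exact permutation test, the smallest p that 3 against 3 libraries allow. Genes high in another line were also followed in the PER-117 libraries. These had at least 50 CPM (reads per 1 M of a library) in every DMSO library of that line. In the lowest PER-117 library they had at most 0.2 CPM. Their medians per line, as a share of that line's own level, were 0.174% to 0.643% with decitabine, 0.278% to 0.575% in DMSO replicate 3 and 0 to 0.0743% in DMSO replicates 1 and 2. The choice by the lowest PER-117 library itself favours values near 0 in some libraries. Counts do not tell reads from another line apart from expression in PER-117. Several otherwise silent genes had their few DMSO reads in replicate 3, and any part of reads from other lines in rises of low level was not tested.

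Of the T-lineage markers, 9 of 21 reached 5 CPM in each treatment, among them CD3D, CD3G, CD247, LCK and BCL11B. Their summed level was 551 to 578 CPM with decitabine and 855 to 861 CPM with DMSO. The sum of 9 erythroid and megakaryocytic markers was 24.7 to 37.1 CPM with decitabine and 5.47 to 8.23 CPM with DMSO, and that of 10 myeloid markers was 12.1 to 12.9 CPM with decitabine and 4.90 to 6.14 CPM with DMSO. The sum of 6 B-lineage markers was 5.91 to 6.91 CPM with decitabine and 6.89 to 9.17 CPM with DMSO, and the 7 epithelial and stromal markers stayed under 1 CPM in all 6 libraries. In bulk RNA, fewer cells of a type and less RNA per cell cannot be told apart.

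With decitabine more genes rose than fell in PER-117, and most of the large changes were rises from low levels. By edgeR's quasi-likelihood test over all 30 libraries (adjusted p under 0.05), 1308 genes were higher, 8.67% of the 15081 tested, and 477 were lower, 3.16%. Rises were also larger: 1003 genes were higher by at least 2-fold, 6.65% of those tested, and 48 were lower by as much, 0.318%. At an equal depth of 9927698 reads, 20120, 19917 and 20074 genes had a read in the decitabine libraries, against 17555, 17711 and 18150 in the DMSO libraries. No reads with DMSO but at least 30 with decitabine were found for 112 genes, and the opposite pattern for 0.

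The fit of the 6 PER-117 libraries alone called 1707 genes higher, 13.4% of 12693 tested, and 1390 lower, 11.0%. With the replicate number as a block, those 6 libraries gave 2384 higher (18.8%) and 2283 lower (18.0%). The block is given below in the 6 libraries, so counts with it are to be read against 18.8% and 18.0%, and against the counts of the 6 libraries without it. The same block in the fit of all lines gave 1253 higher (8.31%) and 428 lower (2.84%). Falls in the main comparison depended on single libraries. Without decitabine replicates 1, 2 and 3 there were 206, 280 and 294 lower genes, and without DMSO replicates 1 and 2 there were 284 and 251. The count of higher genes was 906 to 1132 without any 1 library. Leaving out 3 DMSO libraries of PEER, TALL-1 and MOLT-16 that hold transcripts of another line gave 1877 higher and 881 lower.

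The 2 directions came from different levels of expression. Each transcript gives about the same number of 3′ reads whatever its length, so levels were not divided by length. Among genes under 0.1 CPM with DMSO, 260 of 1593 were called higher (16.3%) and 0 lower, with 0 also at an unadjusted p under 0.05 and by DESeq2. From 0.1 to 1 CPM 335 of 1652 were higher (20.3%) and 1 lower. Between 10 and 100 CPM the counts were nearly even, 260 higher (4.25%) and 268 lower (4.38%) of 6119. At 100 CPM or more, 31 of 2079 were higher (1.49%) and 180 lower (8.66%), with a median log2 change of 0.55 for the higher and −0.54 for the lower. Since a low DMSO level itself favours a rise, genes were also grouped by the mean of both treatments. From 0.1 to 1 CPM 17.8% of 1668 genes were then higher and 1 gene lower, and at 100 CPM or more 2.13% of 2019 were higher and 7.92% lower.

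**Figure D1:**
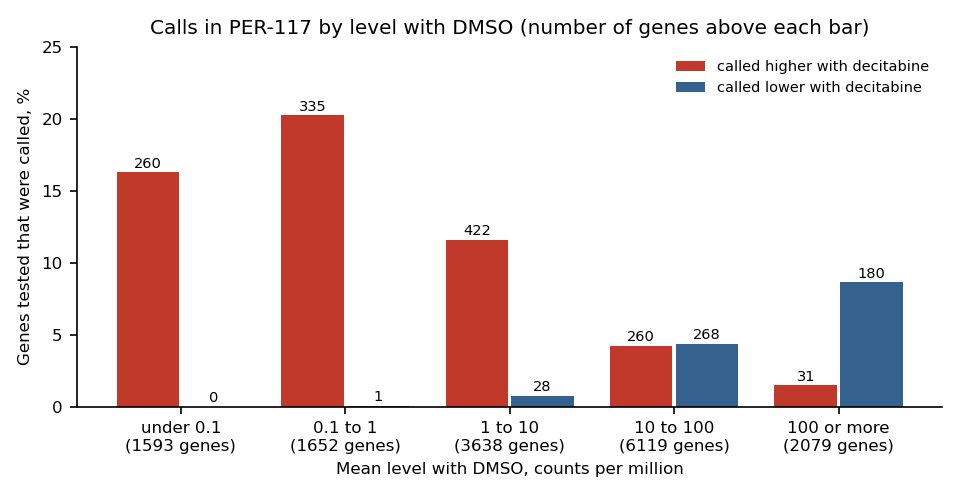
Share of tested genes called higher and lower with decitabine in PER-117 (vertical axis, percent), in bins of their mean DMSO level in CPM (horizontal axis), with the count of called genes above each bar. Calls of higher genes run from 16.3% in the lowest bin and 20.3% in the next to 1.49% in the highest, and calls of lower genes from 0 to 8.66%.

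By class, 1169 of 12371 protein-coding genes were higher (9.45%) and 452 lower (3.65%), against 118 higher (7.08%) and 11 lower (0.660%) of 1666 long non-coding genes. Pseudogenes gave 10 of 680 higher (1.47%). On the X chromosome, which carries many cancer-testis genes, 52 of 487 genes were higher (10.7%), against 8.65% on the autosomes. The highest share was on chromosome 9, with 73 of 570 (12.8%), and the lowest on chromosome 18, with 10 of 228 (4.39%).

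Promoter sequences are shown for 4 genes that differ in CG content, because methylation in vertebrates sits mostly on the cytosine of CG dinucleotides. They come from RefSeq (GRCh38.p14), run 5′ to 3′ from 250 bases before to 50 bases after the start of transcription, and have each CG in capitals. A single start was taken per gene, and those of DAZL and CREB5 lie inside the gene spans given below. Reads from 3′ ends do not tell which start was used. DAZL, a germ-cell RNA-binding protein gene that rose, holds 33 CG (chr3:16605374-16605673, minus strand). HHEX, a homeobox factor of blood progenitors that rose, holds 44 CG (chr10:92689705-92690004, plus strand). CREB5, a transcription factor gene that rose, holds 5 CG (chr7:28412268-28412567, plus strand). LTB, the gene for lymphotoxin beta that fell, holds 2 CG (chr6:31582376-31582675, minus strand).
DAZL: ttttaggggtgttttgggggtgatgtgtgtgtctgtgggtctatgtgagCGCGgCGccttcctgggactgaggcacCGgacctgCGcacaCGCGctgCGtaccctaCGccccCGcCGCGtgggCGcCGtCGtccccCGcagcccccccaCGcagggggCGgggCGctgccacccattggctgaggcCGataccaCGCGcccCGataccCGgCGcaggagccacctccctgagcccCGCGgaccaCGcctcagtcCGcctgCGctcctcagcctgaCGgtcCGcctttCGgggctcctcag
HHEX: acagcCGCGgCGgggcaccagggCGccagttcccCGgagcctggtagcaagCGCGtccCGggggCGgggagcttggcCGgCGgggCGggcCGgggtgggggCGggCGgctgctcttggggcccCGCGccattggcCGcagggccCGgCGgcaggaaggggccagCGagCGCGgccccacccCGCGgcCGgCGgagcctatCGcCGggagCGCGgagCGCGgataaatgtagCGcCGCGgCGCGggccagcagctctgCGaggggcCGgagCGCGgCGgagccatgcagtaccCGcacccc
CREB5: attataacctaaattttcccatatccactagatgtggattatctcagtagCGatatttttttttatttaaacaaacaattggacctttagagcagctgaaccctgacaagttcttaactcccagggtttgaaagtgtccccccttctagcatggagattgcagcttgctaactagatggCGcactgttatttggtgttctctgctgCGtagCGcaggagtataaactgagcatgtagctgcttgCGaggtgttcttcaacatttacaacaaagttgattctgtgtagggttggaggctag
LTB: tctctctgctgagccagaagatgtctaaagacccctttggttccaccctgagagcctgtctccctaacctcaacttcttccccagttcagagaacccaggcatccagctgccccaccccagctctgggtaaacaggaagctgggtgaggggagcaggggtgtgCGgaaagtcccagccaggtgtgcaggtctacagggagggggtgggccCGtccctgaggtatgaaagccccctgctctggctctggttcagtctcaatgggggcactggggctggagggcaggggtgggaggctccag

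Over all called genes the median number of CG differed little between directions, but more of the higher genes had under 15 CG. Promoters were matched for 924 of 1130 higher genes (81.8%) and 364 of 432 lower genes (84.3%), counting protein-coding genes and leaving out chromosomes 8, Y and M. The median was 26 CG per 300 bases among higher genes (interquartile range 14 to 35), 27 among lower genes (21 to 37) and 26 among all 10050 tested (18 to 34). At least 15 CG were found in 73.8% of the higher, 83.2% of the lower and 81.0% of all tested.

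The largest rise was in the PNMA family, genes related to retrotransposon Gag proteins and known as targets of antibodies in paraneoplastic disease. PNMA5 (chrX:152988824-152994127, GRCh38) had 226, 155 and 313 CPM in the decitabine libraries, against 0.335, 0 and 0.215 CPM in the DMSO libraries. All 3 decitabine libraries were above all 3 DMSO libraries, as the choice of leading genes required. Its means were 231 ± 78.8 CPM with decitabine and 0.183 ± 0.170 CPM with DMSO (SD, n = 3 each; log2 10.21, SE 1.21, adjusted p = 7.22e-07). That value was 10.89 without DMSO replicate 1 and 9.64 without DMSO replicate 2. PNMA6E (chrX:153395640-153401420) had 34.7, 17.7 and 38.6 CPM with decitabine and 0 reads with DMSO, at least 286-fold higher (adjusted p = 1.09e-07). PNMA3 had 86 reads with decitabine and 1 with DMSO, a ratio of 68.5 (95% counting interval 11.97 to 2736). Of the 12 PNMA genes 8 were measured, and these 3 were higher and 0 lower, against 8.67% and 3.16% of all genes. Of the 8, 6 were under 1 CPM with DMSO, these 3 among them, and had little room to fall. Without the filter on low counts 12 were tested and 3 were higher. Reads of near-identical copies in the PNMA6 group may be split by the counting.

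Cancer-testis and germline genes, which are normally expressed in germ cells and placenta, were at or near 0 with DMSO in PER-117 and rose with decitabine. Of 77 such genes 26 passed the filter on low counts, and 22 of these were higher and 0 lower by edgeR, against 8.67% and 3.16% of all genes. Of lower members 0 were found at an unadjusted p under 0.05, by DESeq2 or by limma-voom. Of the 26, 24 were under 1 CPM with DMSO, so they had little room to fall and the share leans towards rises. A further 19 of the 77 had no read in any of the 6 libraries. With a minimum count of 50 in the filter, 12 were tested and 11 called. Genes near 0 with DMSO pass the filter mostly through groups where they are higher, which also leans the share towards rises. Without the filter 63 were tested, and 32 were higher and 0 lower, against 4.93% and 1.21% of all genes. With the filter, 16.3% of all genes under 0.1 CPM with DMSO were higher, and 20.3% of those from 0.1 to 1 CPM.

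Among them were X-linked antigens and germline regulators. MAGEA4 (chrX:151912509-151925170), a melanoma antigen family gene, had 9.60, 11.4 and 11.1 CPM with decitabine and 0 reads with DMSO, at least 98.7-fold higher (adjusted p = 2e-07). MAGEB1 and MAGEB2, of the same family, rose from 0 DMSO reads as well, by at least 31.1-fold in MAGEB1 and 29.2-fold in MAGEB2. DESeq2 did not call MAGEB1 (adjusted p = 0.289). CTAG2 (chrX:154651972-154653579), a cancer-testis antigen with a close paralog, had 13.7, 7.85 and 25.7 CPM with decitabine, against 0, 0 and 0.108 CPM with DMSO. In reads this was 547 against 1, a ratio of 436 (95% counting interval 77.8 to 17233; adjusted p = 1.57e-06).

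DAZL (chr3:16586792-16670306), with the CG-rich RefSeq promoter printed above, had 19.9, 13.8 and 19.2 CPM with decitabine, against 0, 0 and 0.323 CPM with DMSO. Its 623 reads with decitabine and 3 with DMSO gave a ratio of 165 (56.3 to 804; adjusted p = 1.24e-08). The 3 DMSO reads were all in replicate 3. TUBA3D (chr2:131476093-131482934), a testis-type alpha-tubulin with near-identical copies, had 13.1, 11.3 and 15.7 CPM with decitabine and 0 reads with DMSO, at least 124-fold higher (adjusted p = 4.4e-08). TDRD12, of the piRNA pathway that silences transposons in germ cells, had 27.1, 18.4 and 28.5 CPM with decitabine, against 0.112, 1.04 and 0.862 CPM with DMSO (log2 5.15, SE 0.43, adjusted p = 2.84e-09).

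CTCFL, the germline counterpart of the insulator factor CTCF, had 2.14, 2.17 and 2.30 CPM with decitabine and 0 reads with DMSO, at least 20.4-fold higher. MAEL, another piRNA pathway gene, had 210 reads with decitabine and 3 with DMSO, a ratio of 55.7 (18.8 to 272). PRAME had 4.73, 5.29 and 8.47 CPM with decitabine, against 0.223, 0.625 and 0.539 CPM with DMSO (log2 3.67, SE 0.78, adjusted p = 0.00167). PAGE5, an X-linked antigen, was an exception in its starting level, with 40.8, 38.4 and 54.9 CPM with decitabine and 6.58, 8.33 and 7.65 CPM with DMSO (log2 2.57, SE 0.32, adjusted p = 1.73e-06).

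The other leading rises were in genes of varied function. NACAD (chr7:45080438-45088914), related to the nascent polypeptide-associated complex, had 13.1, 15.2 and 14.1 CPM with decitabine, against 0.112, 0.104 and 0.215 CPM with DMSO (log2 6.47, SE 0.55, adjusted p = 8.49e-09). TNFAIP2 (chr14:103123442-103137439), a gene induced by tumour necrosis factor, had 14.2, 12.3 and 13.4 CPM with decitabine, against 0, 0.104 and 0.215 CPM with DMSO. Its 468 and 3 reads gave a ratio of 124 (42.2 to 604; adjusted p = 4.4e-08). These leading rises were chosen among genes whose groups did not overlap.

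PGF (chr14:74941834-74955784), placental growth factor, had 13.1, 8.79 and 13.2 CPM with decitabine, against 0.223, 0 and 0 CPM with DMSO, a read ratio of 165 (45.3 to 1366; adjusted p = 1.92e-08). TBXA2R (chr19:3594506-3606840), the thromboxane A2 receptor, had 8.72, 5.48 and 8.93 CPM with decitabine, against 0, 0 and 0.108 CPM with DMSO, a ratio of 217 (38.7 to 8616; adjusted p = 6.34e-08). CREB5 (chr7:28299321-28825894), with the CG-poor RefSeq promoter above, had 8.57, 10.9 and 6.63 CPM with decitabine, against 0, 0 and 0.215 CPM with DMSO, a ratio of 121 (33.1 to 1001; adjusted p = 2.46e-06). Without DMSO replicate 3, DAZL, CTAG2, TBXA2R and CREB5 had 0 DMSO reads, and so had PGF without DMSO replicate 1.

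**Figure D2:**
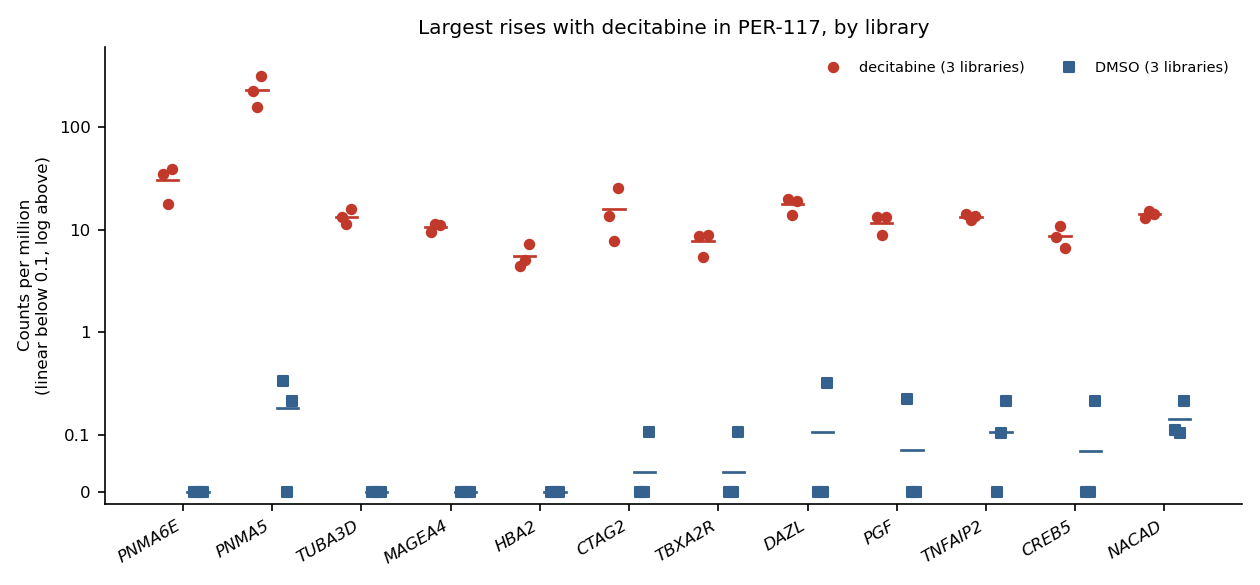
Level in CPM (vertical axis, linear below 0.1 and logarithmic above) of the 12 protein-coding genes with the largest rises in PER-117, each point a library and each bar the mean of 3, decitabine left of DMSO. The genes were chosen with all 3 decitabine libraries above all 3 DMSO libraries, and PNMA5 reaches the highest level, 155 to 313 CPM.

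By the size of the change in CPM, the rises were led by mitochondrial transcripts and abundant cytoplasmic genes. MT-CYB, MT-ND4 and MT-CO2 rose by log2 0.67, 0.67 and 0.47, and from unstranded counts MT-CYB and MT-ND4 were not called (adjusted p = 0.103 and 0.0765). The call of MT-CO2 was lost without decitabine replicate 1 or 2 or DMSO replicate 1 or 3 (adjusted p = 0.0515 to 0.0944). TMSB10, an actin-binding thymosin, had 516, 542 and 581 CPM with decitabine, against 255, 324 and 387 CPM with DMSO (log2 0.76, SE 0.17, adjusted p = 0.00217). CKB, brain-type creatine kinase, had 273, 242 and 302 CPM with decitabine, against 115, 116 and 110 CPM with DMSO (log2 1.26, SE 0.29, adjusted p = 0.00397). LAPTM5, a lysosomal protein of blood cells, rose by 0.55, a call lost without decitabine replicate 3 or any 1 of the DMSO replicates (adjusted p = 0.0510 to 0.109).

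Most targets of p53 rose. Of 49 listed genes 41 were measured, and 28 were higher and 0 lower by edgeR, against 8.67% and 3.16% of all genes. No member was lower at an unadjusted p under 0.05, by DESeq2 or by limma-voom. Their median log2 change was 0.94, against 0.05 over all genes tested. In 31 of the 41 all 3 decitabine libraries lay above all 3 DMSO libraries, against 21.6% of all genes.

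Cell-cycle and feedback genes were among the clearest. CDKN1A (chr6:36676460-36687339), which encodes the CDK inhibitor p21, had 61.5, 54.9 and 68.1 CPM with decitabine, against 15.1, 12.2 and 12.2 CPM with DMSO (log2 2.23, SE 0.32, adjusted p = 1.76e-05). MDM2 (chr12:68808176-68850686), the ubiquitin ligase that degrades p53, had 169, 157 and 153 CPM with decitabine, against 84.9, 79.1 and 85.8 CPM with DMSO (log2 0.94, SE 0.14, adjusted p = 3.86e-05). Both genes separated the treatments without overlap. BTG2, an antiproliferative gene, had 45.8, 39.6 and 44.1 CPM with decitabine, against 11.8, 9.48 and 10.6 CPM with DMSO (log2 2.02, SE 0.21, adjusted p = 1.09e-07). PPM1D, a phosphatase that limits p53 signalling, rose by 0.84 (SE 0.20).

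FDXR (chr17:74862497-74873031), ferredoxin reductase of mitochondria, had 105, 89.7 and 118 CPM with decitabine, against 32.2, 30.9 and 32.6 CPM with DMSO (log2 1.71, SE 0.20, adjusted p = 5.85e-07). Its promoter is shown because a scan found a pair of decamers like the p53 response element there. The p53 half-site, a motif of 10 bases, was searched as a pair with up to 13 bases between the pair and up to 2 mismatches in all, and it is its own reverse complement. The pair is in capitals, starts 31 bases before the transcription start and has a spacer of 10 bases and 2 mismatches (RefSeq, chr17:74872945-74873244, minus strand).
FDXR: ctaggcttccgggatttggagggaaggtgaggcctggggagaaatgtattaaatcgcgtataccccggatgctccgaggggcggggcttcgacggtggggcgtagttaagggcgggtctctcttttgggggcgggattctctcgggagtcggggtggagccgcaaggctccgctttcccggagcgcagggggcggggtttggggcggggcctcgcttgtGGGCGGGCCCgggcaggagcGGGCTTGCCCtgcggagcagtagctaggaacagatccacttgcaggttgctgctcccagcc

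Such a pair was present in 2.81% of the promoters of higher genes, 1.92% of lower genes, 2.32% of all 10050 tested and 2.94% of all 27305 RefSeq promoters. A match of letters does not show binding.

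GDF15, a secreted stress factor of the TGF-beta family, had 33.9, 21.7 and 33.2 CPM with decitabine, against 4.02, 2.29 and 4.63 CPM with DMSO (log2 3.02, SE 0.37, adjusted p = 1.15e-06). TP53INP1, a p53-induced nuclear protein, had 6.65, 5.77 and 9.30 CPM with decitabine, against 0, 0.104 and 0.431 CPM with DMSO (log2 5.21, SE 0.67, or 6.70 without DMSO replicate 3). Stress and DNA repair targets moved with them. SESN1, a sestrin that limits oxidative stress, rose by 1.24 (SE 0.20), DDB2 and XPC, which recognise ultraviolet damage, rose by 0.88 (SE 0.15) and 0.67 (SE 0.15), and RRM2B, a p53-dependent ribonucleotide reductase subunit, by 1.01. RPS27L, a ribosomal protein paralog and p53 target, had 457, 383 and 504 CPM with decitabine, against 233, 227 and 235 CPM with DMSO (log2 0.95, SE 0.17, adjusted p = 0.000181).

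Of the members that trigger apoptosis, BBC3, the BH3-only protein PUMA, had 160, 141 and 143 CPM with decitabine, against 52.0, 47.1 and 53.4 CPM with DMSO (log2 1.54, SE 0.36, adjusted p = 0.00379). BAX, a pore-forming effector, had 48.7, 50.8 and 86.0 CPM with decitabine, against 39.3, 30.8 and 67.9 CPM with DMSO. The treatments of BAX overlapped, and replicate 3 was high in both. It was not called at log2 0.43 (adjusted p = 0.555), but was called with the replicate block in the 6 libraries (adjusted p = 0.000529). PMAIP1 (NOXA) and FAS, a death receptor, were not called at −0.03 and 0.50 (adjusted p = 0.970 and 0.187), and FAS was called with that block (adjusted p = 0.0399).

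**Figure D3:**
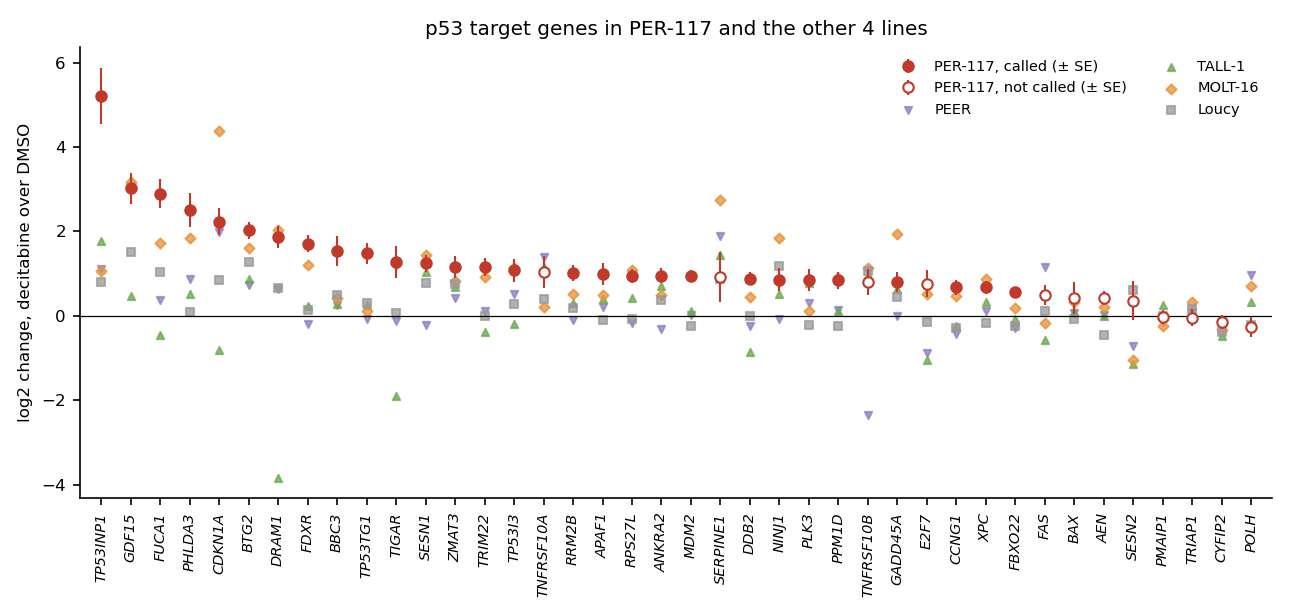
Log2 change with decitabine against DMSO (vertical axis) of 40 measured p53 targets (along the horizontal axis), with PER-117 as large circles (filled where called, bars of 1 SE) and PEER, TALL-1, MOLT-16 and Loucy as small symbols. In PER-117 28 circles are filled, all above 0, and TP53INP1 lies highest at 5.21.

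Among 37 apoptosis regulators 5 were higher and 2 lower, against 8.67% and 3.16% of all genes, with a median log2 change of 0.10. In the 6 libraries 9 and 6 of 31 were called with the replicate block, against 18.8% and 18.0% of all genes, and 5 and 4 without it. Without DMSO replicate 2 or 3 there were 3 higher genes, and 1 lower gene was left without decitabine replicate 1 or 2 or DMSO replicate 3. BCL2, which blocks apoptosis, had 10.3, 9.27 and 10.7 CPM with decitabine, against 18.2, 20.3 and 21.1 CPM with DMSO (log2 −0.98, SE 0.15, adjusted p = 2.68e-05). BCL2L1 (BCL-XL) was also lower at −0.65, a call lost without decitabine replicate 1 or 2 or DMSO replicate 3 (adjusted p = 0.0538 to 0.211). MCL1, another blocker, was at −0.01 and was not called (adjusted p = 1.00). BIRC2, an inhibitor of apoptosis protein, rose by 0.50 (SE 0.11).

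Of 23 CDK inhibitors and cyclins 3 were higher and 0 lower by edgeR, against 8.67% and 3.16% of all genes, and 1 was lower at an unadjusted p under 0.05 and 0 by DESeq2 or limma-voom. With the block in the 6 libraries 7 were higher and 4 lower of 21, against 18.8% and 18.0% of all genes, and 5 and 2 without it. DESeq2 called 5 higher. CDKN1C, the imprinted inhibitor p57, had 32.5, 31.9 and 37.7 CPM with decitabine, against 2.34, 3.44 and 4.31 CPM with DMSO (log2 3.33, SE 0.39, adjusted p = 5.05e-07). CDKN1B, the inhibitor p27, was at 0.39 and not called (adjusted p = 0.0524), but was called with the block (adjusted p = 0.00018).

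Several genes of the red cell and platelet lineages rose. Of 31 erythroid and megakaryocytic genes 12 were measured, and 7 were higher and 1 lower, against 8.67% and 3.16% of all genes. Of the 12, 5 were under 1 CPM with DMSO, 4 of the higher genes among them, and these had little room to fall. GATA1, a master factor of both lineages, had 12.04, 11.9 and 15.9 CPM with decitabine, against 4.46, 5.42 and 4.31 CPM with DMSO (log2 1.49, SE 0.32, adjusted p = 0.00371). ITGA2B, the platelet integrin alpha IIb, had 4.73, 8.13 and 8.93 CPM with decitabine, against 1.00, 2.60 and 2.05 CPM with DMSO (log2 1.92, adjusted p = 0.000445). HBA2 (chr16:172876-173710), alpha-globin, had 4.43, 5.11 and 7.28 CPM with decitabine and 0 reads with DMSO, at least 51.2-fold higher (adjusted p = 3.51e-06). Its reads can be split with the near-identical HBA1.

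EPOR, the erythropoietin receptor, rose by log2 1.299 (4.36, 4.35 and 5.16 CPM with decitabine, against 1.79, 1.98 and 1.83 CPM with DMSO). KLF1, an erythroid transcription factor, had 70 reads with decitabine and 1 with DMSO, a ratio of 55.7 (9.68 to 2232), and SLC4A1, the band 3 anion exchanger of red cells, had 90 and 2, a ratio of 35.8 (9.63 to 300). TAL1, a blood stem cell and erythroid factor that is also a T-ALL oncogene, had 0.665, 1.89 and 1.75 CPM with decitabine and 0 reads with DMSO, at least 12.7-fold higher (adjusted p = 0.00375). The lower member was TFRC, the transferrin receptor, with 563, 622 and 443 CPM with decitabine, against 1060.0, 1141 and 793 CPM with DMSO (log2 −0.88, adjusted p = 0.0417). That call was lost without any 1 of the decitabine replicates or without DMSO replicate 1 or 2 (adjusted p = 0.0588 to 0.169). With a minimum count of 50, 8 genes of the list were tested, and 3 of the 7 rises were called.

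CD34, the surface marker of blood progenitors, had 5.91, 7.38 and 10.8 CPM with decitabine, against 0.669, 0.937 and 0.862 CPM with DMSO (log2 3.25, SE 0.55, adjusted p = 0.00013). Of 25 measured stem and progenitor genes 2 were higher, CD34 among them, and 1 lower, against 8.67% and 3.16% of all genes. The 6 libraries gave 5 and 4 of 17 with the block, against 18.8% and 18.0%, and 5 and 2 without it. LYL1 and LMO2, T-ALL oncogenes, stood at log2 0.17 and 0.06 and were not called (adjusted p = 0.822 and 0.942). Among 21 myeloid genes 5 were higher and 1 lower, against 8.67% and 3.16% of all genes, and the higher count was 3 without decitabine replicate 1 or DMSO replicate 1 and 2 without DMSO replicate 2. HDC, histidine decarboxylase of mast cells and basophils, had 6.87, 9.36 and 10.7 CPM with decitabine, against 1.00, 0.937 and 1.08 CPM with DMSO (log2 3.13, SE 0.51, adjusted p = 7.79e-05). CEBPA, the granulocyte factor, had 10.4, 11.4 and 11.7 CPM with decitabine, against 5.02, 3.54 and 4.09 CPM with DMSO (log2 1.40, adjusted p = 0.0170), a call lost without DMSO replicate 2 or 3 (adjusted p = 0.0889 and 0.0563).

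Transcription factors of the T lineage moved in both directions, with 8 of 31 higher and 5 lower, against 8.67% and 3.16% of all genes. Of the 31, 6 were under 1 CPM with DMSO, 3 of the higher genes among them. In the 6 libraries 11 and 10 of 29 were called with the block, against 18.8% and 18.0%, and 9 and 8 without it. The lower count was 3 without any 1 of the decitabine replicates and 2 without DMSO replicate 2. ID2 and ID3, which block E-protein factors of early T-cell development, both rose. ID2 had 31.2, 29.4 and 30.1 CPM with decitabine, against 6.14, 6.56 and 5.71 CPM with DMSO (log2 2.30, SE 0.28, adjusted p = 1.25e-06). ID3 had 34.4, 37.6 and 44.3 CPM with decitabine, against 5.58, 8.12 and 6.57 CPM with DMSO (log2 2.51, SE 0.37, adjusted p = 1.88e-05). TBX21 (T-bet), the factor of type 1 helper cells, had 9.60, 8.04 and 11.6 CPM with decitabine, against 2.68, 2.50 and 1.62 CPM with DMSO (log2 2.10, adjusted p = 0.000169).

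KLF2, a factor of quiescent and migrating T cells, had 90 reads with decitabine and 2 with DMSO, a ratio of 35.8 (9.63 to 300). LEF1, a WNT-pathway factor of thymocytes, had 70.4, 70.5 and 62.8 CPM with decitabine, against 132, 116 and 127 CPM with DMSO (log2 −0.88, SE 0.18, adjusted p = 0.000961). Its partner TCF7 was not called at −0.13 (adjusted p = 0.833). IKZF1 and BCL11B, lymphoid zinc finger factors, were lower at −0.41 and −0.54, but each call was lost without at least 3 of the libraries in turn. For IKZF1 these were decitabine replicates 1 and 3 and DMSO replicate 2 (adjusted p = 0.0758 to 0.0999). For BCL11B they were decitabine replicates 2 and 3 and DMSO replicates 1 and 2 (adjusted p = 0.0727 to 0.135).

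In the NOTCH pathway, which drives T-cell commitment and many T-ALLs, 8 of 32 genes were higher and 3 lower, against 8.67% and 3.16% of all genes. Of the 32, 11 were under 1 CPM with DMSO, 6 of the higher genes among them, and these had little room to fall. With a minimum count of 50 in the filter, 26 were tested and 5 were higher. The block in the 6 libraries gave 9 and 7 of 26, against 18.8% and 18.0%, and 9 and 5 without it. The lower count was 1 without decitabine replicate 1 or 3 or DMSO replicate 1 or 2. Ligands came on at low level: DLL3 had 55 reads with decitabine and 1 with DMSO, a ratio of 43.8 (7.54 to 1761), and JAG1 had 16 and 0, at least 4.25-fold higher (not called from unstranded counts, adjusted p = 0.0747). NRARP, a feedback inhibitor and NOTCH target, had 5.47, 5.2005 and 4.70 CPM with decitabine, against 0.781, 0.312 and 0.754 CPM with DMSO (log2 3.03, SE 0.46, adjusted p = 4.4e-05). MFNG, a Fringe enzyme that modifies NOTCH receptors, had 56.1, 56.4 and 57.0 CPM with decitabine, against 98.2, 108 and 99.3 CPM with DMSO (log2 −0.85, SE 0.14, adjusted p = 0.000136). NOTCH1 and its target HES1 were not called at −0.38 and 0.74 (adjusted p = 0.283 and 0.400), but both were called with the block (adjusted p = 0.000209 and 1.37e-06).

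Among 26 cytokines and TNF ligands 3 were higher and 3 lower, against 8.67% and 3.16% of all genes, and 1 was higher without DMSO replicate 1. In the 6 libraries 6 and 7 of 21 were called with the block, against 18.8% and 18.0%, and 4 and 5 without it. Of 39 JAK-STAT signalling genes 4 were higher and 2 lower, near the share of all genes, and in the 6 libraries 9 and 14 of 37 were called with the block and 6 and 8 without it. Among 20 chemokines and receptors 4 were higher and 0 lower by edgeR, against 8.67% and 3.16% of all genes, with 2 lower at an unadjusted p under 0.05, 0 by DESeq2 and 1 by limma-voom. That count of 4 was 2 in the 6 libraries with or without the block, where 10 of the 20 were tested, and 2 without decitabine replicate 1 or 3 or DMSO replicate 1 or 2. Of the 20, 11 were under 1 CPM with DMSO, 3 of the higher genes among them, and these had little room to fall. CCL1, a T-cell chemokine, had 5.69, 4.92 and 4.14 CPM with decitabine, against 0.223, 0.208 and 0.215 CPM with DMSO (log2 4.42, SE 0.68, adjusted p = 3.73e-05). SOCS3, an inhibitor of JAK-STAT signalling, had 3.55, 3.40 and 2.95 CPM with decitabine, against 0.669, 0.312 and 0.646 CPM with DMSO (log2 2.58, adjusted p = 0.000134). PIM2, a survival kinase, rose by 0.95 and TXNIP, a thioredoxin inhibitor, by 1.32. CD70, a TNF-family ligand, rose by 1.44, a call lost without decitabine replicate 3 or DMSO replicate 1 or 2 (adjusted p = 0.0709 to 0.0862). IL16, a T-cell attractant, fell by 0.69, but was not called from unstranded counts (adjusted p = 0.151).

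The largest fall was in MT-ND6 (chrM:14149-14673), the complex I subunit encoded alone among the mitochondrial messenger RNAs on the opposite strand of that genome. It had 156, 139 and 167 CPM with decitabine, against 744, 619 and 733 CPM with DMSO (log2 −2.18, SE 0.27, adjusted p = 1.73e-06). Of the 13 mitochondrially encoded genes 3 were higher and 1 lower, against 8.67% and 3.16% of all genes. The 6 libraries gave 7 and 2 with the block and 7 and 1 without it, and unstranded counts gave 1 and 2. In the fit of all lines MT-ND6 moved against the others that changed. MT-CYB had 3591, 3537 and 3707 CPM with decitabine, against 2224, 2191 and 2415 CPM with DMSO.

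The other large falls were in genes of low or moderate level. RGL4, a RAL exchange factor, had 21.4, 22.0 and 22.5 CPM with decitabine, against 61.8, 57.5 and 63.9 CPM with DMSO (log2 −1.47, SE 0.22, adjusted p = 3.38e-05). TRPM2, a calcium channel opened by oxidative stress, had 7.46, 7.19 and 8.75 CPM with decitabine, against 26.4, 23.1 and 25.4 CPM with DMSO (log2 −1.68, adjusted p = 7.97e-05). These leading falls were chosen among genes whose treatments did not overlap.

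MANEAL, a relative of Golgi and ER mannosidases, had 5.54, 5.30 and 2.76 CPM with decitabine, against 19.3, 20.4 and 16.1 CPM with DMSO (log2 −2.02, adjusted p = 5.03e-06). TNFRSF8, the activation receptor CD30, fell by 1.66 on the log2 scale, SERINC2 by 1.47, AFF3, a nuclear protein of lymphoid cells, by 1.44, LCT, the intestinal lactase, by 1.26, and GNB1L by 1.24. RNF165 was lower at −1.50 and SPNS3 at −1.29. The call of RNF165 was lost without decitabine replicate 1 (adjusted p = 0.0777), and that of SPNS3 without decitabine replicate 1 or 2 or DMSO replicate 1 (adjusted p = 0.0629 to 0.0769).

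By CPM the falls were led by LTB (chr6:31580525-31582522), whose CG-poor promoter is printed above and whose product signals in lymphoid organs. LTB had 809, 1077 and 998 CPM with decitabine, against 1523, 2086 and 1813 CPM with DMSO (log2 −0.91, SE 0.20, adjusted p = 0.00219). SPN, the leukocyte sialomucin CD43, had 482, 441 and 528 CPM with decitabine, against 805, 913 and 914 CPM with DMSO (log2 −0.86, adjusted p = 0.000733). SET, a histone chaperone, and STMN1, a regulator of microtubules, were lower at −0.45 and −0.35. The call of SET was lost without decitabine replicate 3 or DMSO replicate 1 or 2 (adjusted p = 0.0616 to 0.0836), and that of STMN1 without decitabine replicate 1 or 3 or DMSO replicate 2 or 3 (adjusted p = 0.0599 to 0.0876).

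Several enzymes of lipid synthesis fell. Of 31 measured genes of cholesterol and fatty acid synthesis 12 were lower and 1 higher, against 3.16% and 8.67% of all genes, with a median log2 change of −0.41. With the replicate block in the 6 libraries 20 were lower and 2 higher, against 18.0% and 18.8%, and 17 and 1 without it. Without decitabine replicate 1 or DMSO replicate 3 the lower count was 6 and 5. INSIG1, the sterol-sensing brake of the pathway and itself a target of its master factor, had 105, 117 and 136 CPM with decitabine, against 202, 198 and 278 CPM with DMSO (log2 −0.92, SE 0.18, adjusted p = 0.00068). FASN, fatty acid synthase, had 159, 145 and 150 CPM with decitabine, against 313, 243 and 288 CPM with DMSO (log2 −0.89, adjusted p = 0.0084). ACLY, which makes the acetyl-CoA for both pathways, had 193, 201.5 and 184 CPM with decitabine, against 307, 286 and 298 CPM with DMSO (log2 −0.62, SE 0.12, adjusted p = 0.000357).

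FDPS, of the isoprenoid steps, and ACACA, which commits acetyl-CoA to fatty acids, fell by 0.67 and 0.54. FDPS was not called from unstranded counts (adjusted p = 0.447), nor ACACA without a filter on low counts (adjusted p = 0.0628). SCD, the stearoyl-CoA desaturase, had 522, 571 and 573 CPM with decitabine, against 831, 801 and 1243 CPM with DMSO (log2 −0.79). Its call was lost without decitabine replicate 1 or DMSO replicate 3 (adjusted p = 0.0520 and 0.108). SREBF2, the master factor, was at 0.00 and was not called, with or without the block. The higher member was TM7SF2, a sterol reductase, at 0.77, a call lost without decitabine replicate 3 or DMSO replicate 1 or 2 (adjusted p = 0.0732 to 0.102).

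Several growth genes fell as well. Of 45 genes of the MYC network and ribosome biogenesis 15 were lower and 1 higher, against 3.16% and 8.67% of all genes, with a median of −0.44. The lower count was 35 of 43 with the replicate block in the 6 libraries, against 18.0% of all genes, 30 in the 6 libraries without it, 25 without the 3 mixed DMSO libraries, and 8 and 9 without decitabine replicate 1 and DMSO replicate 1. MYB, a factor that T-ALL cells depend on, had 219, 223 and 222 CPM with decitabine, against 399, 420 and 372 CPM with DMSO (log2 −0.84, SE 0.12, adjusted p = 1.43e-05). MYC had 52.5, 60.8 and 38.4 CPM with decitabine, against 86.4, 76.3 and 106 CPM with DMSO (log2 −0.82, adjusted p = 0.0429). The call of MYC was lost without any 1 library other than decitabine replicate 2 (adjusted p = 0.0557 to 0.195), and with the block in the fit of all lines (adjusted p = 0.0585).

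NOP16, a nucleolar assembly factor, had 67.1, 80.6 and 73.2 CPM with decitabine, against 123.2, 136 and 131 CPM with DMSO (log2 −0.82, adjusted p = 0.00391). NCL, the nucleolar protein nucleolin, had 792, 827 and 787 CPM with decitabine, against 1075, 1227 and 1228 CPM with DMSO (log2 −0.55, adjusted p = 0.00581). The higher member was MXD4, which opposes MYC, at 0.87, a call lost without decitabine replicate 1 or 3 or DMSO replicate 1 or 2 (adjusted p = 0.0766 to 0.202). The ribosomal proteins themselves hardly moved: 1 of 84, RPS27L, was higher and 0 lower by edgeR, against 8.67% and 3.16% of all genes. At an unadjusted p under 0.05, 1 was lower, and 0 by DESeq2 or limma-voom. In the 6 libraries 6 were higher and 8 lower with the block, against 18.8% and 18.0% of all genes, and 1 and 2 without it.

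Of the CD3 chains of the T-cell receptor, CD3D, CD3G and CD247 were lower. Of 25 genes of the receptor and its signalling 5 were lower and 1 higher, against 3.16% and 8.67% of all genes, with a median of −0.16. In the 6 libraries 10 and 1 of 22 were called with the block, against 18.0% and 18.8%, and 7 and 1 without it. The lower count was 3 without decitabine replicate 1 or 3 or DMSO replicate 2 or 3. CD3D had 83.3, 91.2 and 85.1 CPM with decitabine, against 163, 175 and 161 CPM with DMSO (log2 −0.94, SE 0.15, adjusted p = 4.07e-05). CD3G had 61.6, 74.2 and 55.0 CPM with decitabine, against 125, 125 and 123.1 CPM with DMSO (log2 −0.97, SE 0.16, adjusted p = 7.4e-05). CD247, the zeta chain, had 81.2, 71.1 and 84.8 CPM with decitabine, against 128, 122 and 115 CPM with DMSO (log2 −0.62, adjusted p = 0.00808).

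CD3E was not called at −0.35 (adjusted p = 0.438), but was called with the block (adjusted p = 0.000898). LCK, the kinase of the receptor, was lower at −0.42, a call lost without any 1 of the 6 libraries (adjusted p = 0.0665 to 0.123). TRBC2, the beta chain constant region, was lower at −0.61, a call lost without decitabine replicate 1 or 3 or DMSO replicate 2 or 3 (adjusted p = 0.0679 to 0.101).

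**Figure D4:**
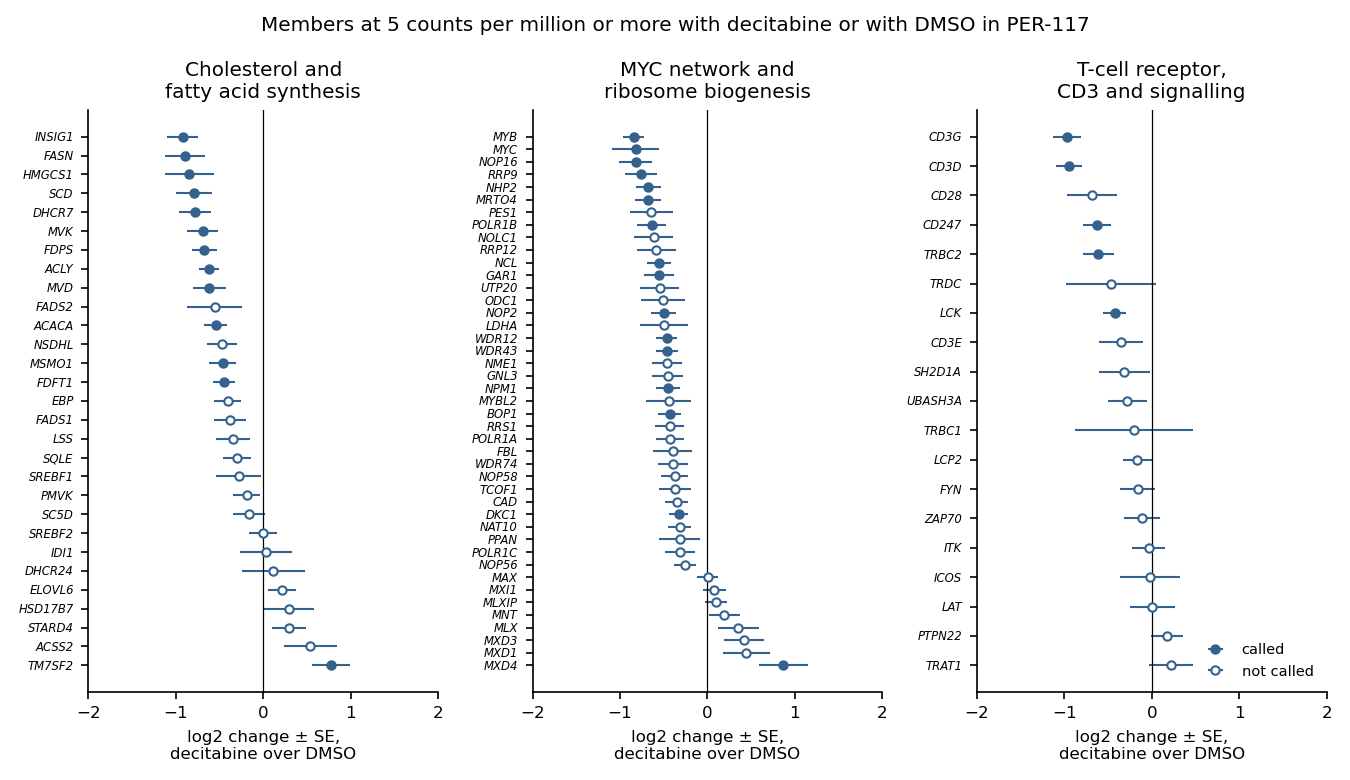
Log2 change with decitabine against DMSO in PER-117 (horizontal axis, bars of 1 SE) for measured members at 5 CPM or more in either treatment of 3 lists: cholesterol and fatty acid synthesis, the MYC network and ribosome biogenesis, and the T-cell receptor with CD3. Filled points are called, and most members of the first 2 panels lie left of 0, with INSIG1 at −0.92 and MYB at −0.84.

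Most cell cycle genes were not called, as for genes in general, of which 11.8% were called in either direction. Of 56 E2F targets and replication genes 0 were higher by edgeR (1 at an unadjusted p under 0.05, 0 by DESeq2 or limma-voom) and 4 lower, against 8.67% and 3.16% of all genes, with a median of −0.17. The lower count was 25 with the replicate block in the 6 libraries, against 18.0% of all genes, and 12 without it, 8 by DESeq2 and by limma-voom, 7 without the 3 mixed DMSO libraries, and 1 or 2 without decitabine replicate 1 or 3 or DMSO replicate 2 or 3. POLD2, a subunit of the replicative polymerase delta, had 178, 184 and 179 CPM with decitabine, against 275, 291 and 278 CPM with DMSO (log2 −0.64, adjusted p = 0.00325). Of 60 mitosis genes 2 were higher and 0 lower by edgeR, against 8.67% and 3.16% of all genes, with a median of 0.15. Of lower genes 0 were found at an unadjusted p under 0.05, by DESeq2 or by limma-voom. The block in the 6 libraries gave 21 and 2, against 18.8% and 18.0%, and 8 and 0 without it, and the higher count was 4 without the 3 mixed DMSO libraries. UBE2C, the ubiquitin-conjugating enzyme of the anaphase-promoting complex, had 453, 377 and 399 CPM with decitabine, against 263, 231 and 262 CPM with DMSO (log2 0.70, adjusted p = 0.00398). CKAP2, a spindle protein, rose by 0.49.

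Most innate immune genes were not called, as for genes in general, of which 11.8% were called in either direction. Of 55 interferon-stimulated genes 7 were higher and 1 lower, against 8.67% and 3.16% of all genes, with a median of 0.10. With the replicate block, 9 and 12 of 45 were called in the 6 libraries, against 18.8% and 18.0%, and 7 and 6 without it. The higher count was 4 without decitabine replicate 1 or 2 or DMSO replicate 1, and the lower count 0 without DMSO replicate 1 and 3 without DMSO replicate 2. LGALS3BP, a secreted galectin-binding glycoprotein, had 74 reads with decitabine and 2 with DMSO, a ratio of 29.5 (7.87 to 248). TRIM22, an antiviral ubiquitin ligase that is also a p53 target, had 22.0, 26.4 and 19.9 CPM with decitabine, against 9.60, 10.4 and 10.6 CPM with DMSO (log2 1.16, SE 0.21, adjusted p = 0.000259).

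ISG15, a ubiquitin-like protein strongly induced by interferon, had 39.1, 39.0 and 45.6 CPM with decitabine, against 59.6, 64.1 and 57.2 CPM with DMSO. It was not called at −0.55 (adjusted p = 0.0632), and was called lower with the block (adjusted p = 2.16e-05). Of 12 nucleic acid sensing genes 0 were called in either direction by edgeR, against 8.67% higher and 3.16% lower of all genes. At an unadjusted p under 0.05, 1 was higher and 1 lower, DESeq2 and limma-voom each called 1 higher, and in the 6 libraries 2 were higher and 3 lower with the block and 1 and 1 without it. TAP1, which pumps peptides to MHC class I, had 32.1, 29.5 and 36.4 CPM with decitabine, against 18.7, 19.5 and 19.1 CPM with DMSO (log2 0.77, adjusted p = 0.00343). ERAP2, which trims those peptides, fell by 0.69. No other of the 20 class I genes was called, against 8.67% higher and 3.16% lower of all genes. In the 6 libraries 5 were higher and 8 lower of 18 with the block, against 18.8% and 18.0% of all genes, and 3 and 7 without it. Of 14 class II genes 0 were called by edgeR, with 1 higher and 1 lower at an unadjusted p under 0.05, 0 by DESeq2 and 1 higher by limma-voom. Over all genes the edgeR shares were 8.67% higher and 3.16% lower, and 10 of the 14 were under 1 CPM with DMSO.

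Most genes of DNA methylation itself were not called either, as for genes in general (11.8% called in either direction). Of 19 measured, 2 were higher and 0 lower by edgeR, against 8.67% and 3.16% of all genes (2 lower at an unadjusted p under 0.05, 0 by DESeq2 or limma-voom, and in the 6 libraries 6 with the block and 3 without it). The higher count was 0 or 1 without any 1 library. DNMT1, the main enzyme that decitabine depletes as a protein, had 664, 762 and 571 CPM with decitabine, against 850, 912 and 765 CPM with DMSO, and was not called (log2 −0.34, adjusted p = 0.558). DNMT3B, a de novo enzyme, had 63.7, 68.7 and 48.9 CPM with decitabine, against 86.4, 74.5 and 75.7 CPM with DMSO (log2 −0.38, adjusted p = 0.206). In both the treatments did not overlap, and both were lower with the block in the 6 libraries (adjusted p = 3.78e-05 and 0.000485). DNMT3A, the other de novo enzyme, had 68.0, 64.9 and 67.3 CPM with decitabine, against 48.3, 48.4 and 49.3 CPM with DMSO (log2 0.45, adjusted p = 0.0314), a call lost without any 1 of the 6 libraries (adjusted p = 0.0614 to 0.0995). Among other chromatin genes CBX2, a Polycomb subunit, had 70.2, 61.4 and 68.5 CPM with decitabine, against 161, 129 and 123.02 CPM with DMSO (log2 −1.05, SE 0.18, adjusted p = 0.00017).

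The leading rises among long non-coding genes, of which 7.08% were higher, were the following. RNF144A-AS1 had 5.84, 5.30 and 9.21 CPM with decitabine and 0 reads with DMSO, at least 62.4-fold higher (adjusted p = 1.25e-06). MIR202HG, host of a germline microRNA, had 268 reads with decitabine and 2 with DMSO, a ratio of 107 (29.2 to 886). MIAT had 25.2, 24.4 and 22.7 CPM with decitabine, against 1.45, 0.833 and 1.51 CPM with DMSO (log2 4.24, SE 0.31, adjusted p = 5.49e-10). LINC00963 rose by 2.54.

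The non-coding falls were smaller. LINC00426, a lymphoid transcript, had 13.1, 10.7 and 10.4 CPM with decitabine, against 23.5, 22.2 and 29.3 CPM with DMSO (log2 −1.13, SE 0.24, adjusted p = 0.0018). AP002387.1 fell by 1.01. HMGA1P4 and AP000345.2 were lower at −1.53 and −1.27. The call of HMGA1P4 was lost without decitabine replicate 1 or 3 or DMSO replicate 2 (adjusted p = 0.0536 to 0.133), and that of AP000345.2 without any 1 of the decitabine replicates or DMSO replicate 3 (adjusted p = 0.0638 to 0.201).

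The response was set against that of the other 4 lines by testing the difference of the log2 changes. The PER-117 change was above their mean for 328 genes, 2.17% of those tested, and below it for 130, 0.862%. The counts were 184 and 192 above without DMSO replicates 1 and 2. Below, they were 62 and 68 without decitabine replicates 1 and 2, 83, 72 and 86 without DMSO replicates 1, 2 and 3, and 357 without the 3 mixed DMSO libraries. Against Loucy alone, the line of most similar depth, the PER-117 change was above for 316 genes (2.1%) and below for 285 (1.89%), or 625 and 500 without the mixed libraries and 209 above without DMSO replicate 1.

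Of the 1308 higher genes, 464 were also higher in Loucy (35.5% of the PER-117 calls and 29.1% of the Loucy calls), 230 in PEER (17.6% and 43.1%), 204 in TALL-1 (15.6% and 20.1%) and 161 in MOLT-16 (12.3% and 48.6%). Of the 1308, 625 (47.8%) were called higher in no other line and 10 in all 4 others. The higher calls made up 10.6% of tested genes in Loucy, 3.54% in PEER, 6.74% in TALL-1 and 2.19% in MOLT-16. Of the 477 lower genes, 130 were also lower in Loucy (27.3% of the PER-117 calls and 20.9% of the Loucy calls), 118 in TALL-1 (24.7% and 12.8%), 37 in MOLT-16 (7.76% and 24.3%) and 33 in PEER (6.92% and 22.8%). Lower calls made up 4.13% of tested genes in Loucy, 6.12% in TALL-1, 1.01% in MOLT-16 and 0.961% in PEER. The lines have controls of their own, and their libraries differ in depth, with medians of 4.90 M gene reads in PEER, 4.68 M in TALL-1, 4.08 M in MOLT-16 and 13.03 M in Loucy, against 11.47 M in PER-117.

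For 13 of the 41 p53 targets the change was above the mean of the other lines, against 2.17% of all genes. Of the targets 3 were higher in PEER (3.54% of all genes), 6 in TALL-1 (6.74%), 15 in MOLT-16 (2.19%) and 7 in Loucy (10.6%). FDXR rose by 1.36 more than that mean (SE 0.22, adjusted p = 0.000393), with a change of 1.71 in PER-117, −0.20 in PEER, 0.24 in TALL-1, 1.20 in MOLT-16 and 0.14 in Loucy. MDM2 rose by 0.73 more (SE 0.16, adjusted p = 0.00856), at 0.94 in PER-117, 0.02 in PEER, 0.11 in TALL-1, 0.95 in MOLT-16 and −0.24 in Loucy. DDB2 rose by 1.05 more (SE 0.17, adjusted p = 0.00044). MOLT-16 was the line whose changes in FDXR and MDM2 lay nearest to those of PER-117.

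The fall of MFNG differed from the mean of the other lines by −0.80 (SE 0.16, adjusted p = 0.00412). For CD3D the difference was not called (adjusted p = 0.0510). ID3 rose by 2.01 more in PER-117 than in the mean of the others (SE 0.40, adjusted p = 0.00292), and MIAT by 3.03 more (SE 0.36, adjusted p = 3.84e-06).

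**Figure D5:**
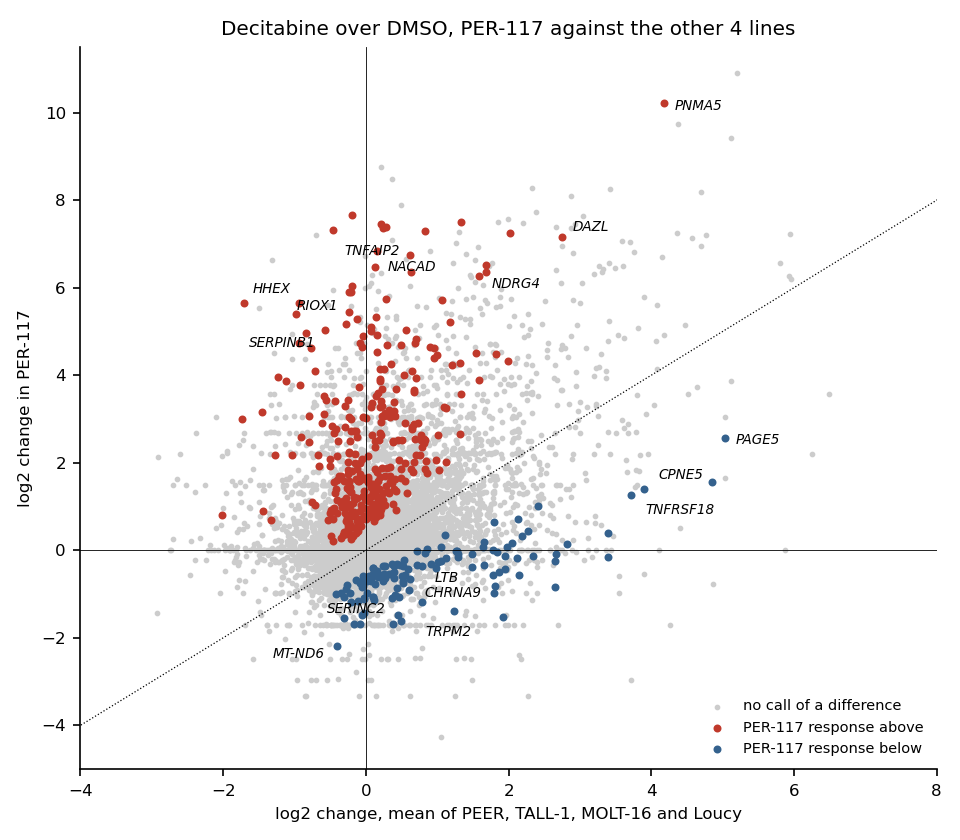
Log2 change with decitabine against DMSO in PER-117 (vertical axis) and the mean of the log2 changes in PEER, TALL-1, MOLT-16 and Loucy (horizontal axis), each point a tested gene. Red and blue points are the 328 and 130 genes called above and below the mean of the other lines, the dotted line marks equal change, and the 16 named genes include HHEX, 6.58 above, and LTB, 1.52 below.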

How the data were processed

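RNA from 3 decitabine and 3 DMSO libraries of each of 5 T-ALL lines, 30 in all, was extracted with miRNeasy kits and made into QuantSeq 3′ FWD libraries, per the labels. The authors deposited raw counts of reads per gene, unstranded and for each strand, from STAR 2.4.2a on GRCh38 (hg38), per the submitters' processing notes, which also name DESeq2. The sources used here do not name the annotation release. Counts on the gene strand were used. Gene names came from GENCODE 29, which held 56996 of the 60554 identifiers (3558 had no symbol).

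Genes were kept by edgeR's filterByExpr (minimum count 10), which left 15081. edgeR 4.0.16 (R 4.3.3) fitted 10 group means to all 30 libraries with TMM scaling and quasi-likelihood tests, 20 residual degrees of freedom and a common dispersion of 0.0280. Benjamini-Hochberg adjusted p under 0.05 was called, and the procedure was checked on simulated data. Every p in the text that is not named otherwise comes from these tests. SE is the log2 change divided by the root of F. CPM used TMM-scaled library sizes. Differences from the other 4 lines were contrasts in the same fit, and the 6 PER-117 libraries were also fitted alone. A gene with 0 DMSO reads was set against 3 counts, summed over the DMSO libraries, as its floor, and one with 1 to 3 reads was given as a read ratio with a 95% interval. Intervals cover counting error only. No 2 libraries of the same treatment in PER-117 were duplicates, and other pairs were not compared.

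Same-numbered decitabine and DMSO libraries deviated together (r = 0.27, 0.33 and 0.47 over 9678 genes, against −0.39 to 0.18 for different numbers), so a fit with the replicate number as a block is given where it changes a result. Alternatives were DESeq2 1.42.0, limma-voom (limma 3.58.1), RLE or no scaling, a minimum count of 50 or no filter, unstranded counts, leaving out each library, and leaving out 3 mixed DMSO libraries of other lines. The block in the fit of all lines was added after seeing the data.

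Named genes were, among genes with adjusted p under 0.05, at least 5 CPM in the higher treatment and libraries that did not overlap, the 12 protein-coding genes with the largest log2 rises and falls of at least 2-fold, the 8 each way with the largest change in CPM, and the 4 long non-coding genes each way. The 8 genes each way that differed most from the other lines, and members of gene lists, were added. The members and lists were chosen with earlier results of these data known. Promoters (RefSeq, GRCh38.p14) run from 250 bases before to 50 after the start of transcription, with a single start per gene. Levels of Y-linked genes were not used. A few list members and 1 gene of the rule above are not reported here or drawn, but stay in all counts.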

Additional observations from a re-analysis of the deposited data

Results flagged for a closer look

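The tests of the difference between the log2 change in PER-117 and the mean of the other 4 lines (edgeR, adjusted over all genes tested) gave the following 8 largest differences in each direction. By the same test against Loucy alone, NACAD, PNMA5, NDRG4, DAZL and MT-ND6 were not called (adjusted p = 0.122 to 0.587). The others of these genes were called against Loucy, but the calls of TNFRSF18 and TRPM2 were lost without some single libraries.

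In HHEX the PER-117 change was 6.58 above the mean of the other lines (SE 1.00, adjusted p = 0.000137). HHEX had 6.65, 7.47 and 9.76 CPM with decitabine in PER-117, against 0, 0.104 and 0.323 CPM with DMSO. Its means in the other lines were 119 with decitabine and 94.98 CPM with DMSO in PEER, 0.657 and 5.59 CPM in TALL-1, 12.9 and 17.5 CPM in MOLT-16, and 89.997 and 106 CPM in Loucy. It was thus expressed in PEER, MOLT-16 and Loucy in both treatments and close to 0 with DMSO in PER-117. The DMSO means of PEER, TALL-1 and MOLT-16 each include a library that holds transcripts of another line. The part of that library in the DMSO level of TALL-1 was not tested. The difference was 7.77 without DMSO replicate 3 and 5.45 without 3 mixed DMSO libraries of other lines.

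RIOX1, a ribosomal oxygenase, was 5.69 above (SE 0.63, adjusted p = 1.61e-06) and SERPINB1, an inhibitor of neutrophil proteases, 5.602 above (SE 1.01, adjusted p = 0.00102). RIOX1 had 15.2, 7.85 and 16.6 CPM with decitabine in PER-117, against 0.112, 0 and 0.754 CPM with DMSO. SERPINB1 had 7.09, 5.67 and 6.35 CPM with decitabine, against 0, 0 and 0.539 CPM with DMSO. In PEER SERPINB1 averaged 190 CPM with decitabine and 131 CPM with DMSO, and RIOX1 63.9 CPM with each. Without DMSO replicate 3 the differences were 7.81 for RIOX1 and 9.23 for SERPINB1 (4.69 without the mixed libraries), and without DMSO replicate 2 that of RIOX1 was 5.11. Genes high in another line had medians in the PER-117 libraries of up to 0.643% of that line's level. Any part of reads from other lines in HHEX, RIOX1 and SERPINB1 was not tested.

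TNFAIP2 was 6.14 above (SE 0.76, adjusted p = 7.37e-06), or 6.97 without DMSO replicate 3 and 5.53 without the mixed libraries. NDRG4, of the N-myc downstream-regulated family, was 4.70 above (SE 0.92, adjusted p = 0.00268), or 5.31 without DMSO replicate 1, with 21.1, 16.5 and 24.5 CPM with decitabine in PER-117, against 0.446, 0.104 and 0.215 CPM with DMSO. NDRG4 was also called higher in PEER and Loucy, at log2 1.98 and 3.81. NACAD was 6.34 above (SE 1.32, adjusted p = 0.0052), a call lost without the 3 mixed DMSO libraries (4.66, adjusted p = 1.00).

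PNMA5 was 6.02 above (SE 1.66, adjusted p = 0.0422), although it was called higher in PEER, MOLT-16 and Loucy too, at log2 7.33, 5.79 and 4.24. That call was lost without any 1 library other than decitabine replicate 2 (adjusted p = 0.0667 to 0.126), without the mixed libraries (4.16, adjusted p = 0.0623) and with the replicate block in the fit of all lines (adjusted p = 0.0523), and it was 6.71 without DMSO replicate 1. DAZL was 4.41 above (SE 1.25, adjusted p = 0.0478) and was called higher in PEER and MOLT-16. That call was lost without any 1 library other than DMSO replicate 3 (adjusted p = 0.0549 to 0.141), without which it was 7.37, and without the mixed libraries (2.85, adjusted p = 1.00) or with the block (adjusted p = 0.0571).

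Of the 8 below, 3 rose in PER-117 by less than the mean of the other lines. CPNE5, a calcium-dependent membrane-binding copine, was at a difference of −2.51 (SE 0.51, adjusted p = 0.00439, and −3.20 without the mixed libraries), with 12.4, 9.36 and 17.6 CPM with decitabine in PER-117, against 5.13, 4.37 and 5.49 CPM with DMSO. PAGE5 was at −2.46 (SE 0.49, adjusted p = 0.00305, and −4.81 without the mixed libraries), and was called higher in all 4 other lines, where its DMSO means were 0.238 to 0.430 CPM. TNFRSF18, the TNF receptor family member GITR, was at −2.46 (SE 0.59, adjusted p = 0.0175), with 11.6, 10.8 and 13.7 CPM with decitabine, against 5.47, 3.96 and 5.602 CPM with DMSO. Its log2 change was 1.26 in PER-117, against 7.83 in PEER, 1.85 in TALL-1, 2.43 in MOLT-16 and 2.76 in Loucy.

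The other 5 fell in PER-117. TRPM2 was at −2.05 (SE 0.38, adjusted p = 0.00148) and SERINC2 at −1.92 (SE 0.31, adjusted p = 0.000294), and neither was called in another line. MT-ND6 was at −1.78 (SE 0.30, adjusted p = 0.000471) and was also called lower in Loucy, at log2 −1.22. CHRNA9, a nicotinic receptor subunit, was at −1.53 (SE 0.34, adjusted p = 0.00837), with 12.9, 12.95 and 11.51 CPM with decitabine in PER-117, against 22.6, 27.5 and 28.0 CPM with DMSO. In Loucy CHRNA9 was called higher, with means of 1.25 CPM with decitabine and 0.129 CPM with DMSO. LTB was at −1.52 (SE 0.22, adjusted p = 9.68e-05) and was called higher in PEER and Loucy, at log2 0.74 and 1.71.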

How the results depend on the processing

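Of the 149 genes named in the text 134 were called in the comparison of decitabine with DMSO, and the direction of their log2 change turned under 0 of the alternatives run. Without each of the 6 libraries in turn 113 stayed called and 21 lost the call at least once. Of those tested under each setting, 132 of 132 were called in the 6 libraries alone, 128 of 133 by DESeq2, 134 of 134 by limma-voom, 134 of 134 with RLE size factors, 130 of 134 without TMM scaling, 111 of 113 at a minimum count of 50, 127 of 134 without a filter, 127 of 132 from unstranded counts and 134 of 134 without the 3 mixed DMSO libraries. The calls lost were those of MYC, MXD4, MAGEB1, HMGA1P4 and AP000345.2 by DESeq2, of MYC, BCL11B, STMN1 and TFRC without TMM scaling, of MYC and LCK at a minimum count of 50, of ACACA, BIRC2, CKAP2, DNMT3A, IKZF1, LCK and STMN1 without a filter, and of FDPS, IL16, JAG1, MT-CYB and MT-ND4 from unstranded counts.

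The count of 1308 higher genes was 906 to 1132 without any 1 library, and the count of 477 lower genes 206 to 330. The lower count was 1390 in the 6 libraries alone and 881 without the mixed libraries. With the replicate block in the 6 libraries the counts were 2384 higher and 2283 lower, and in the fit of all lines 1253 and 428. The block in the 6 libraries added calls for the genes given beside their results and ended 0 of 132 calls of named genes. In the fit of all lines the block ended that of MYC. Against the mean of the other 4 lines, 328 genes were above (522 without a filter, 184 to 276 without any 1 library) and 130 below (357 without the mixed libraries, 62 to 95 without any 1). Against Loucy, 316 were above (625 without the mixed libraries, 209 to 290 without any 1) and 285 below (500 without the mixed libraries, 214 to 246 without any 1). The causes were not tested, other than that fewer samples were used.

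Counts limit genes near 0 with DMSO, for which the fitted log2 change depends on the prior count and a bound or read ratio is given. Reads come from 3′ ends, so isoforms were not compared, and levels were not divided by gene length.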

Other observations

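Of 39 imprinted genes 19 were measured, and 6 were higher and 0 lower by edgeR (in the 6 libraries 8 higher with the block and 7 without it, and 0 lower at an unadjusted p under 0.05, by DESeq2 or by limma-voom), against 8.67% and 3.16% of all genes. Of the 19, 6 were under 1 CPM with DMSO, 3 of the higher genes among them. PLAGL1, a zinc finger growth regulator, had 30.9, 35.7 and 31.6 CPM with decitabine, against 12.8, 14.3 and 14.5 CPM with DMSO (log2 1.24, SE 0.23, adjusted p = 0.000456). DLK1, a NOTCH-pathway ligand, had 1.26, 1.51 and 1.20 CPM with decitabine and 0 reads with DMSO, at least 12.2-fold higher (adjusted p = 0.000315). Its level stayed low beside PLAGL1.

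Of 41 epithelial and stromal genes 19 were measured, and 7 were higher, against 8.67% of all genes. Of the 19, 16 were under 1 CPM with DMSO, so they had little room to fall. Without the filter on low counts 39 were tested and 7 were higher. ACTA2, smooth muscle actin and a p53-responsive gene in some cells, had 34.9, 22.98 and 33.3 CPM with decitabine, against 5.24, 3.23 and 2.59 CPM with DMSO (log2 3.04, SE 0.37, adjusted p = 8.69e-07). KRT17, a keratin of stressed epithelium, had 5.10, 3.88 and 3.78 CPM with decitabine and 0 reads with DMSO, at least 40.1-fold higher (adjusted p = 5.6e-05). COL6A1, a collagen chain, had 5.76, 6.15 and 6.63 CPM with decitabine, against 0.112, 1.15 and 0.215 CPM with DMSO (log2 3.58, or 5.10 without DMSO replicate 2).

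Among 37 glycolysis and hypoxia genes 9 were higher and 2 lower, against 8.67% and 3.16% of all genes, with a median log2 change of 0.00. In the 6 libraries 10 and 11 of 35 were called with the block, against 18.8% and 18.0%, and 9 and 7 without it. The higher count was 5 without DMSO replicate 1, and the lower count 0 or 1 without any 1 library. ADM, the vasoactive peptide adrenomedullin, had 6.65, 6.05 and 6.17 CPM with decitabine, against 1.79, 1.98 and 1.29 CPM with DMSO (log2 1.89, SE 0.35, adjusted p = 0.000424). ENO2, neuron-type enolase, had 14.6, 13.05 and 15.9 CPM with decitabine, against 7.92, 4.48 and 3.66 CPM with DMSO (log2 1.44, SE 0.22, adjusted p = 2.49e-05). Its rise exceeded the mean of the other lines by 1.35 (adjusted p = 0.000694).

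Zinc finger genes of the chromosome 19 type were mostly not called: 31 of 432 were higher and 6 lower, against 8.67% and 3.16% of all genes. These counts in the 6 libraries were 63 and 27 of 364 with the block and 41 and 13 without it, and the higher count in the fit of all lines was 17 without DMSO replicate 1 or 2. Of 65 measured homeobox genes 9 were higher and 1 lower, against 8.67% and 3.16% of all genes. Of the 65, 40 were under 1 CPM with DMSO, 4 of the higher genes among them, and these had little room to fall. IRX3, an Iroquois homeobox factor of development, had 12.4, 9.46 and 12.8 CPM with decitabine, against 0.893, 0.833 and 2.37 CPM with DMSO (log2 3.07, SE 0.64, adjusted p = 0.00139), or 3.72 without DMSO replicate 3.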
